A study of Mus musculus with 22 samples.

Results

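The *Hox* genes were followed as 39 members, taken as every protein-coding gene of the GENCODE mouse annotation whose symbol is *Hoxa*, *Hoxb*, *Hoxc* or *Hoxd* followed by a number, out of 21853 protein-coding genes with a transcription start site (TSS). They lay in 4 clusters, each read from its first to its last gene plus 20 kb on either side, on the mm10 build. *Hoxa* held 11 genes (chr6:52135590-52280880), *Hoxb* held 10 (chr11:96174316-96388256), *Hoxc* held 9 (chr15:102901103-103056852) and *Hoxd* held 9 (chr2:74648310-74785142). The stretches measured 145.3, 213.9, 155.8 and 136.8 kb. The choice of members used gene names and positions, not a measured value.

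The samples were G1E-ER4 cells (called G1ER in the study), a mouse erythroid progenitor line without a functional *Gata1* gene that carries GATA1 fused to the ligand-binding part of the estrogen receptor. All groups shared that genotype and a culture medium with serum, stem cell factor (SCF) and erythropoietin (EPO), and differed only in the hours after β-estradiol, which turns the fusion protein on and starts erythroid differentiation. Chromatin immunoprecipitation sequencing (ChIP-seq) of H3K4me3, a mark of active and poised promoters, and of H3K27ac, a mark of active promoters and enhancers, was done at 0, 2, 6, 12 and 24 h, with 2 replicates per time point and mark. CTCF, a zinc-finger protein that binds DNA and marks many domain boundaries, was profiled once at 0 h and once at 24 h. The deposited data were 22 lists of peaks, each peak with a position and a score, so the values below are the number of lists with a peak, the length covered by peaks and the score, not read counts. One line was used. The study describes its replicates as independent experiments, while the labels do not say whether they were separate cultures, so p-values measure the spread between these lists of one line. A peak list cannot tell fewer cells carrying a mark from less of the mark per cell.

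As background, *Hox* genes encode homeodomain transcription factors that set position along the body axis, and their order on the chromosome follows the order in which they are used along that axis. Trithorax complexes with the methyltransferase KMT2A keep *Hox* genes on, Polycomb complexes keep them off, and CTCF sites inside the clusters separate the active from the silent part. In blood, members of the *Hoxa* and *Hoxb* clusters are known for their use in stem and progenitor cells, and HOX proteins often bind DNA together with the TALE homeodomain proteins PBX and MEIS. The clusters also hold microRNA genes of the miR-10 and miR-196 families, which carry the same seeds in several clusters.

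The sequences that the results turn on were read from the GRCm38.p6 genome, the build of the lists. First come the 200 bases just upstream of the TSS of *Hoxc5*, which lie in the stretch with the strongest change in H3K4me3. They are on the plus strand and CG dinucleotides are in capitals.
Hoxc5, chr15:103013615-103013814: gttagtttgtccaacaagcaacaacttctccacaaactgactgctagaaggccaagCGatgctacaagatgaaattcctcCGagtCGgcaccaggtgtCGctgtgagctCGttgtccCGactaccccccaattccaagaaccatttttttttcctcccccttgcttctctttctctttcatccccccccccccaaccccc
The *Hoxc5* stretch held 6 CG dinucleotides, and 42.0% of all protein-coding genes had fewer in the 200 bases upstream of their own TSS.

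Second come windows around a core CTCF motif, in capitals and searched on both strands as CC, any 3 bases, AG, any 2 bases and GGC, for those of the highest-scoring *Hox* CTCF peaks that held it and for a peak listed at 24 h only. They are written along the strand of the motif, and the *Hoxa7* window is shorter because it lies in an annotated UTR.
CTCF peak in Hoxa7, chr6:52221800-52221829, minus strand: aagaaaattCCAGGAGATGGCagtgtggct
CTCF peak between Hoxb9 and Hoxb8, chr11:96278928-96278979, plus strand: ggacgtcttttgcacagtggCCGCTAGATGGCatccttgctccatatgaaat
CTCF peak where Hoxd3 and Hoxd4 overlap, chr2:74716172-74716223, plus strand: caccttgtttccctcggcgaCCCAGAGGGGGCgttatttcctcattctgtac
CTCF peak in Hoxb5, 24 h only, chr11:96303225-96303276, plus strand: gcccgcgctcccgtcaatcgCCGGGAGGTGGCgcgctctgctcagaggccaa
The motif was found in 11 of the 24 CTCF sites of the clusters (45.8%), against 64.3% of the 43987 CTCF sites of the genome and 15.2% of stretches of the same lengths 5 kb away. It was in 2 of 5 *Hoxa* sites, 5 of 9 *Hoxb* sites, 4 of 7 *Hoxd* sites and none of 3 *Hoxc* sites. A match describes letters and is not proof of a binding site, and no match says only that these letters are not in the window.

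Last come mature microRNAs of the clusters, from RefSeq on GRCm38.p6, with the seed (bases 2 to 8) in capitals, shown because their genes could be read for marks beside the protein-coding genes.
miR-615-5p: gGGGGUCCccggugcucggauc
miR-615-3p: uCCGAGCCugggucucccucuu
miR-196a-5p: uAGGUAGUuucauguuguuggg
miR-196b-5p: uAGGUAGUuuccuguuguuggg
miR-10a-5p: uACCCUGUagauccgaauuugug
miR-10b-5p: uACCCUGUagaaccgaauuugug
miR-196a-5p and miR-196b-5p shared the seed AGGUAGU, and miR-10a-5p and miR-10b-5p shared ACCCUGU. Of 7 annotated microRNA genes in the clusters, 6 matched the RefSeq table and the other, *Gm44463*, is named only.

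Most *Hox* promoters, read at 1 TSS per gene, carried neither mark at any time. A promoter window was the TSS plus 2 kb on either side, and 10 of 39 *Hox* genes (25.6%) had an H3K4me3 peak in it in at least 2 of 10 lists, against 45.8% of the 21853 protein-coding genes. For H3K27ac the numbers were 6 of 39 (15.4%) and 43.9%. In 29 *Hox* genes neither mark was listed in the window in any of the 20 lists, and in 24 there was no peak in the gene body or the 2 kb upstream either. The counts depend on the TSS chosen. In these windows 6 *Hox* genes had H3K4me3 and 6 had H3K27ac in all 10 lists. At the annotated TSS with the largest covered length over the lists, 9 had H3K4me3 and 9 had H3K27ac in all 10. The observed over expected CpG ratio within 500 bp of the TSS had a median of 0.589 over the 10 genes with H3K4me3 and 0.726 over the 29 without, against 0.571 over all genes.

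The marked genes were concentrated in one cluster. Of the 9 *Hoxc* genes, 7 had promoter H3K4me3 in at least 2 lists and 4 had both marks in all 10 lists: *Hoxc4*, *Hoxc8*, *Hoxc9* and *Hoxc10*. *Hoxc5* and *Hoxc6* had H3K4me3 in 8 lists and *Hoxc11* in 5, none of them with H3K27ac in the window. Another annotated start site of *Hoxc5*, far upstream, lay in the region at *Hoxc10*, where both marks were in all 10 lists. *Hoxc12* and *Hoxc13*, the most posterior members of the cluster, had neither mark. In *Hoxd*, *Hoxd3* and *Hoxd12* had both marks in the window in all 10 lists, at *Hoxd12* only at its upstream edge and not at the TSS. The other 7 genes (*Hoxd1*, *Hoxd4*, *Hoxd8*, *Hoxd9*, *Hoxd10*, *Hoxd11* and *Hoxd13*) had none in the window. Another annotated start site of *Hoxd4*, upstream, lay in the region at *Hoxd3*, where both marks were in all 10 lists. In *Hoxa*, *Hoxa2* had a short H3K4me3 peak in 3 lists and the other 10 genes had none. No *Hoxb* gene had either mark in its promoter window in any list.

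**Figure D1:**
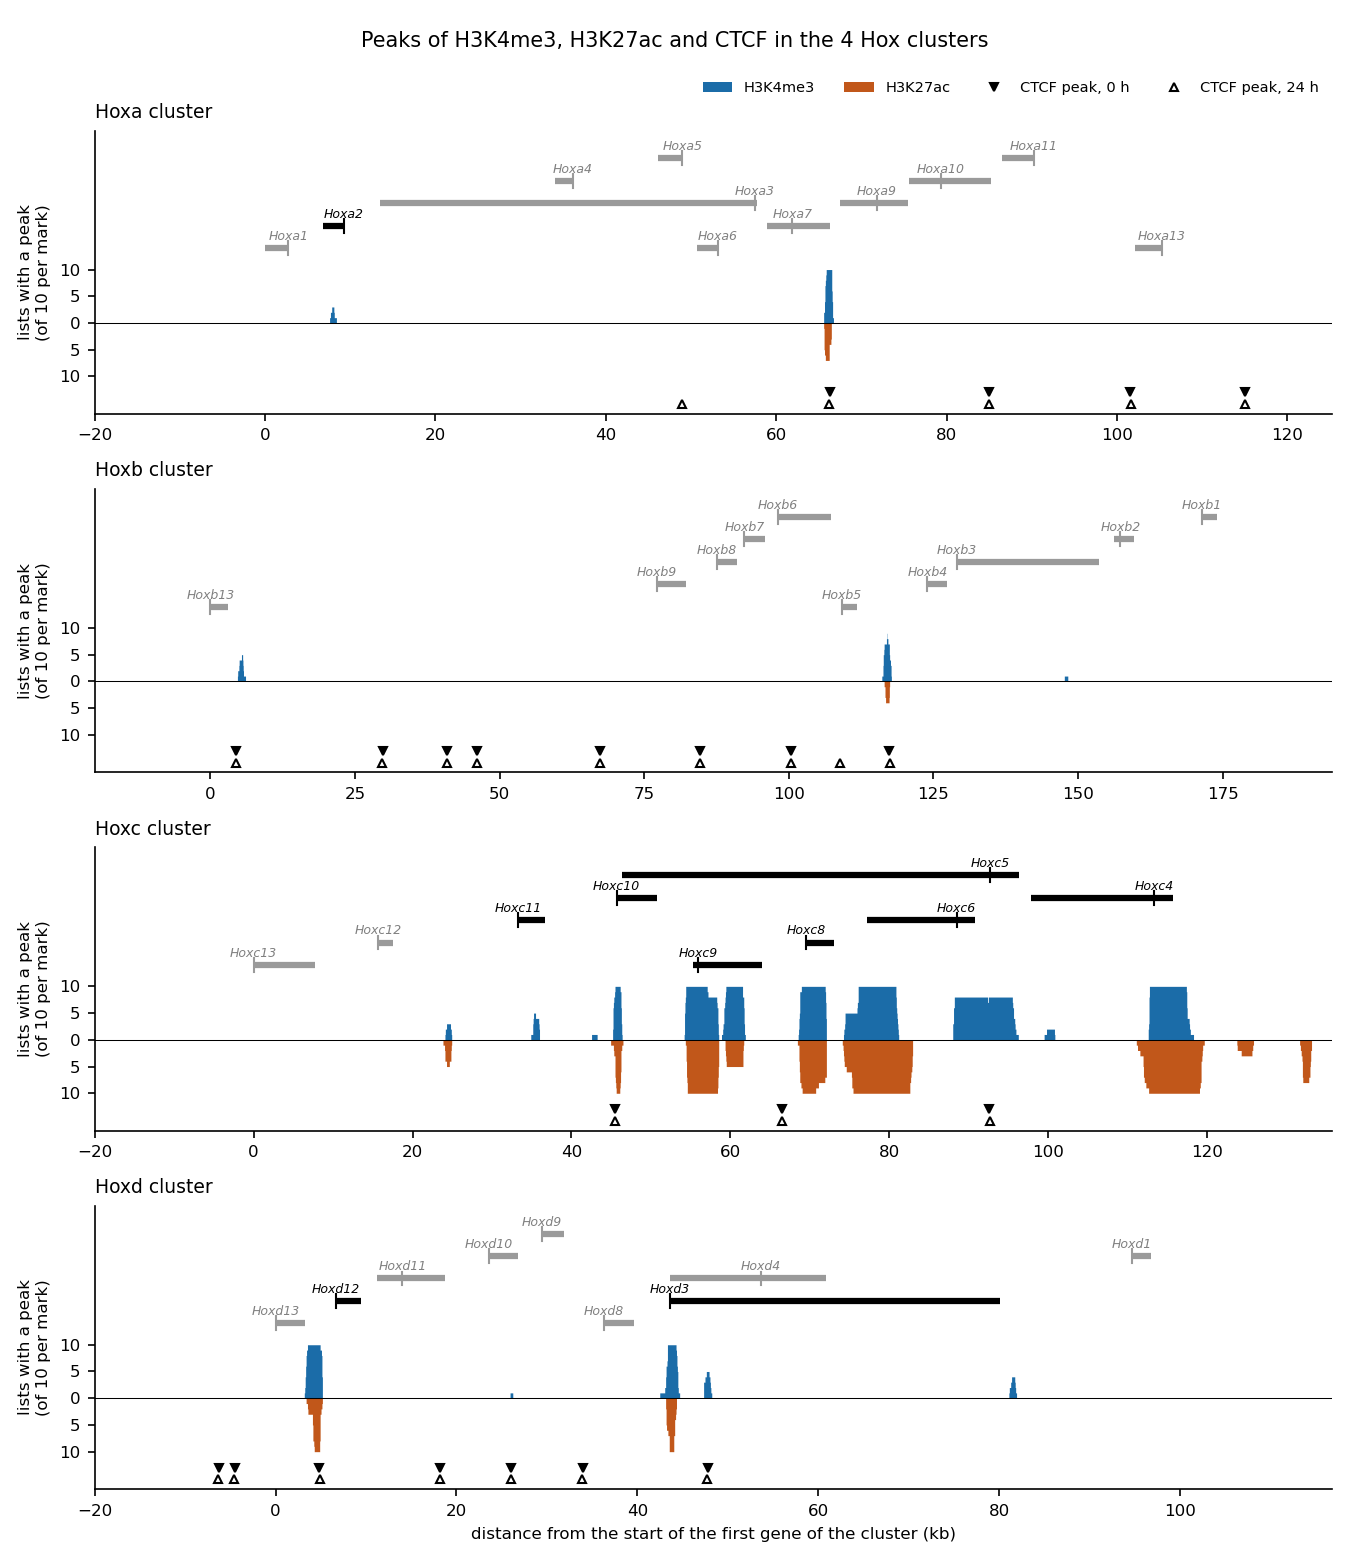
Number of lists with a peak (y axis, of 10 per mark; H3K4me3 drawn upwards, H3K27ac downwards) against distance in kb from the start of the first gene, for the 4 *Hox* clusters; triangles are CTCF peaks, bars are genes and ticks their TSS, black where a histone mark was in the promoter window in at least 2 of 20 lists. The broad blocks present in 10 lists all lie in *Hoxc*, from *Hoxc9* to *Hoxc4*.

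The covered length showed the same division between clusters. H3K4me3 peaks covered 24.9 to 31.9 kb of *Hoxc* (median 28.8 kb over 10 lists), 2.8 to 5.58 kb of *Hoxd*, 0 to 2.5 kb of *Hoxb* and 0.73 to 1.51 kb of *Hoxa*. H3K27ac covered 23.3 to 28.2 kb of *Hoxc* (median 27 kb), 1.38 to 2.61 kb of *Hoxd*, at most 0.912 kb of *Hoxb* and at most 0.86 kb of *Hoxa*. *Hoxc* thus held 79.9 to 87.1% of the H3K4me3 length of the 4 clusters and 88.1 to 94.6% of the H3K27ac length. A median of 18.5% of the *Hoxc* stretch was under H3K4me3 and 17.4% under H3K27ac, while 1.07 to 1.21% and 1.61 to 1.71% of the genome was. CTCF did not share this division, as *Hoxc* held 16.2% of the CTCF length of the clusters at 0 h and 13.6% at 24 h.

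Over the time course the total length in the 4 clusters did not pass the test for a trend. H3K4me3 covered 31.2 ± 0.32 kb before estradiol and 36 ± 2.4, 34.8 ± 2.1, 36.6 ± 1.9 and 34.2 ± 1.8 kb after 2, 6, 12 and 24 h (mean ± SD, n = 2 lists each). At the same 5 times H3K27ac covered 29.7 ± 0.86, 27.4 ± 1.0, 29.2 ± 3.8, 30.7 ± 0.8 and 28.4 ± 4.1 kb. Both lists at 0 h were the lowest for H3K4me3. For H3K27ac both lists at 2 h (26.7 and 28.2 kb) were below both at 0 h (30.3 and 29.1 kb). They were also below both at 12 h (30.1 and 31.2 kb), and the other H3K27ac groups overlapped. Against hours, Spearman's rho was 0.394 for H3K4me3 (two-sided permutation p = 0.271, adjusted p = 0.756 over 10 trends; Pearson's r = 0.206, permutation p = 0.562, adjusted p = 0.999) and 0.0492 for H3K27ac (permutation p = 0.918, adjusted p = 1; r = -0.00842, permutation p = 0.981, adjusted p = 0.999). Over the first 8 lists alone, r became 0.589 for H3K4me3 (exact permutation p = 0.129) and 0.378 for H3K27ac (exact permutation p = 0.35).

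Single clusters gave no adjusted p under the threshold either. For H3K4me3 in *Hoxc*, rho was 0.369 (permutation p = 0.303, adjusted p = 0.756) and r 0.283 (permutation p = 0.432, adjusted p = 0.999). Over its first 8 lists r became 0.725 (exact permutation p = 0.0385, not adjusted). Without the region at *Hoxc6* and *Hoxc5*, an alternative chosen after seeing the data, rho for *Hoxc* was -0.615 (permutation, adjusted p = 0.278). For H3K27ac in *Hoxd*, rho was -0.615 (permutation p = 0.0698, adjusted p = 0.698) and r -0.588 (permutation p = 0.0712, adjusted p = 0.712). Over the first 8 lists r became -0.353 (exact permutation p = 0.399). The slopes of the 2 marks on the log2 scale, per step from one time point to the next, were 0.029 for H3K4me3 and 0.001 for H3K27ac. Their difference, H3K27ac minus H3K4me3, was -0.028, with an exact two-sided permutation p = 0.719 over 1024 exchanges of the mark labels.

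The one large change in the clusters was H3K4me3 over *Hoxc6* and *Hoxc5*, homeobox genes of the middle of the cluster. A region of 8266 bp, chr15:103009073-103017338, held the TSS of both genes, their coding exons and UTRs, and *Mir615*, whose 2 mature sequences are given above. Neither list at 0 h had a peak there. The covered length was 8184 and 7507 bp in replicates 1 and 2 of 2 h, 7688 and 7635 bp in those of 6 h, 7757 and 7544 bp in those of 12 h and 7589 and 7425 bp in those of 24 h. All 8 later lists had the peak, in 24 h replicate 1 as 2 peaks of 4175 and 3414 bp with a gap between them. The groups therefore did not overlap, and the 8 later lists differed among themselves only between 7425 and 8184 bp.

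The difference was present by 2 h and changed little after. On the log2(covered bp + 200) scale the region was higher than before estradiol by 5.33, 5.30, 5.29 and 5.27 after 2, 6, 12 and 24 h (SE 0.05 each; limma adjusted p = 5.92e-09, 6.19e-09, 6.21e-09 and 3.23e-09). It was the only *Hox* region of 18 tested that passed at each of these times, where 0.0538%, 0.148%, 0.316% and 1.58% of 14862 regions passed. Because both 0 h lists are at 0, the size of this difference depends on the pseudocount and it is no fold change. The promoter windows of *Hoxc5* and *Hoxc6* overlap this region and read the same peak, so their calls add no separate evidence. At 24 h *Hoxc5* was higher by 4.37 (SE 0.04, limma adjusted p = 3.21e-08) and *Hoxc6* by 3.63 (SE 0.06, adjusted p = 2.66e-07). These were the 2 *Hox* genes of 10 tested that passed, against 0.28% of 10007 windows. The *Hoxc5* window was filled, at 4001 bp, in 7 of the 8 later lists and empty at 0 h, so the spread within groups is almost 0 and the SE small. An alternative read each gene at the annotated TSS with the largest covered length over the lists. There the *Hoxc6* difference was -0.18 (limma adjusted p = 0.884). That window lay at an upstream start site, in a stretch under H3K4me3 in all 10 lists, and did not read the TSS tested above.

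Such a pattern was rare. Of 16244 H3K4me3 regions in the genome, 5 (0.0308%) had no peak in both lists at 0 h and a peak in all 8 later ones, and the region at *Hoxc6* and *Hoxc5* was the longest of the 5, where the second longest was 4348 bp. A loss at the other end of the time course, with a peak in the first 8 lists and none at 24 h, was seen in 56 regions. This is not the reverse of the pattern above, which changed between 0 and 2 h. No H3K27ac list of the 10 had a peak anywhere in the *Hoxc6* and *Hoxc5* region, whereas 9.88% of H3K4me3 regions found in at least 2 lists had no H3K27ac in any list. A CTCF site at chr15:103013053-103014212 lay inside it, across the *Hoxc5* TSS, and was listed at 0 h, when H3K4me3 was not, as well as at 24 h.

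**Figure D2:**
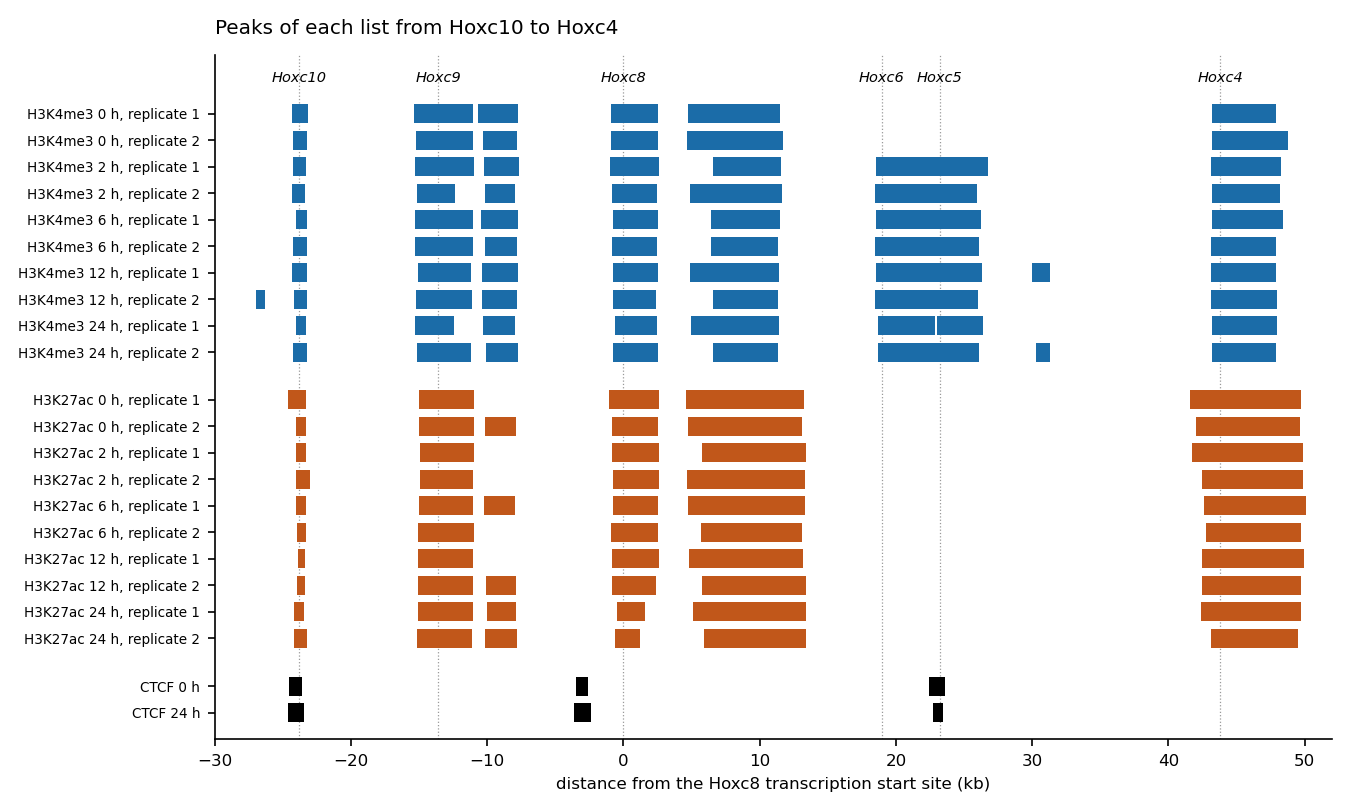
Peaks of each of the 20 histone lists and 2 CTCF lists (rows) against distance from the *Hoxc8* TSS in kb; dotted lines mark the TSS of the named genes. The H3K4me3 block at *Hoxc6* and *Hoxc5* is missing from the 2 lists at 0 h and present in the other 8, and the H3K27ac block at *Hoxc8* is shorter in the 2 lists at 24 h.

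This region was long for these lists: of 16244 H3K4me3 regions, 77 (0.474%) were as long or longer. No H3K4me3 list held a peak over 9200 bp, and the longest peak of each list measured 8843 to 9200 bp; for H3K27ac it was 8769 to 8973 bp. The score also fell with length: over the 10 H3K4me3 lists the median score was 1299 for peaks of 3 to 4 kb, 269 for 7 to 8 kb, 108 for 8 to 9 kb and 57.5 for the 6 peaks above 9 kb. The peaks at *Hoxc6* and *Hoxc5* scored 77.7 to 249, which placed them in the 6.71 to 25.6 percentiles of their lists. Whether the lists at 0 h lacked the mark there, or had it over a stretch that the caller did not list, was not tested and cannot be read from peak lists. With only peaks at or above the median score of all lists, neither the region nor the promoter windows of *Hoxc5* and *Hoxc6* gave a call. The H3K27ac blocks between *Hoxc8* and *Hoxc6* (7367 to 8680 bp) and at *Hoxc4* (6374 to 8184 bp) were shorter than the longest H3K27ac peaks.

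**Figure D3:**
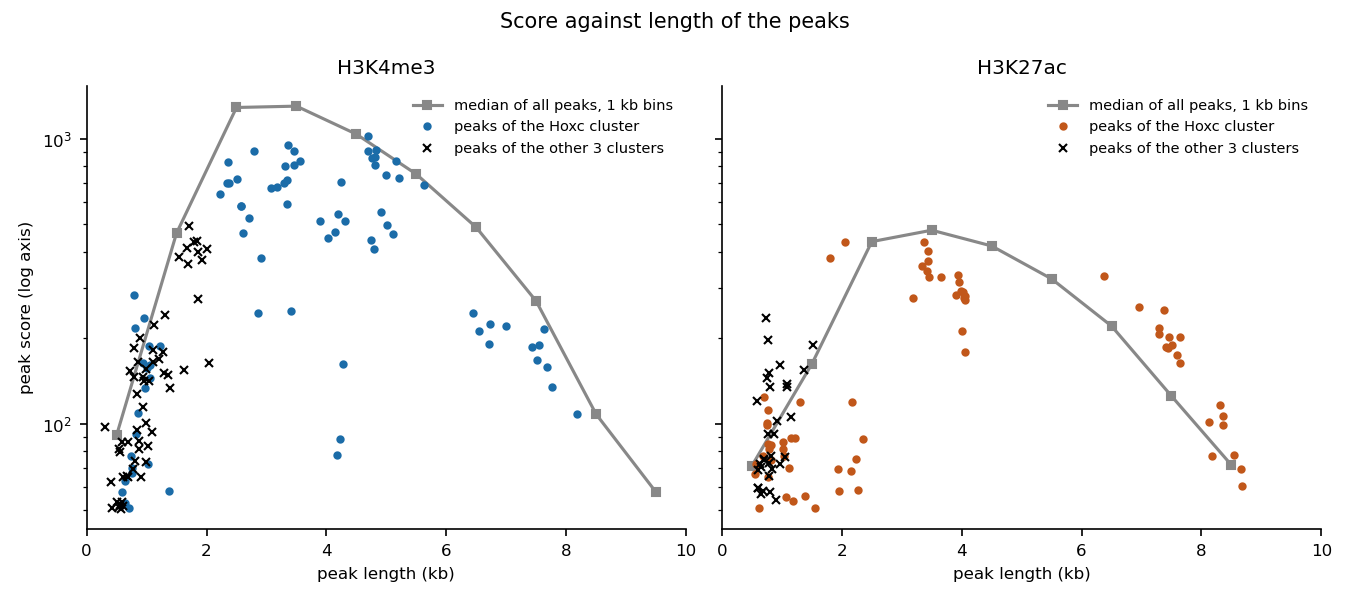
Peak score (log axis) against peak length in kb for H3K4me3 (left) and H3K27ac (right): grey squares are medians of all peaks of the 10 lists in bins of 1 kb, coloured points are peaks of *Hoxc* and crosses peaks of *Hoxa*, *Hoxb* and *Hoxd*. The medians fall beyond 4 kb, and most *Hoxc* H3K4me3 peaks over 2 kb lie below them.

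At *Hoxc8*, a homeobox gene next to *Hoxc9*, H3K27ac narrowed at 24 h. The region chr15:102989545-102993202 covers the TSS, coding exons and UTR of the gene, and its H3K27ac length was 3647 and 3431 bp before estradiol, 3430 and 3369 bp after 2 h, 3343 and 3448 bp after 6 h, 3425 and 3181 bp after 12 h and 2051 and 1810 bp after 24 h. Both lists at 24 h were below all 8 earlier ones. The 0 h lists were also above those of 2 h and 12 h, but no earlier difference from 0 h passed (limma adjusted p = 0.895, 0.861 and 0.687 for 2, 6 and 12 h). Most of the loss was on the downstream side. The peak ended 2355 to 2595 bp past the TSS in the first 8 lists and 1551 and 1199 bp past it at 24 h, and its upstream edge lay from -1062 to -773 bp in the first 8 lists and at -499 and -610 bp at 24 h. The score did not fall, being 276 to 434 in the earlier lists and 434 and 382 at 24 h.

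The *Hoxc8* region fell by 0.81 on the log2(covered bp + 200) scale at 24 h (SE 0.07, limma adjusted p = 0.00137) and was the only *Hox* region of 13 tested for H3K27ac that passed, where 6.32% of 21011 regions did. The earlier differences from 0 h were -0.05, -0.06 and -0.09. In the promoter window the fall was 0.57 (SE 0.06, adjusted p = 0.0111), the only call among 6 *Hox* genes tested, against 1.59% of 9602 windows. That promoter call ended when 0 h replicate 1 was left out (-0.52, adjusted p = 0.0508), when only the lists of 0 and 24 h were fitted (-0.57, adjusted p = 0.157) or when the window was 1 kb (-0.28, adjusted p = 0.179), while the call for the region held without any single list. Of 7 *Hox* regions with H3K27ac in all 10 lists, 2 had both 24 h lists below all earlier ones, *Hoxc8* and *Hoxd3*, as had 6.5% of 13217 such regions in the genome. H3K4me3 at *Hoxc8* was 3459 and 3459 bp at 0 h and 3072 and 3336 bp at 24 h (-0.11, SE 0.06, adjusted p = 0.554).

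*Hoxd3*, an anterior member of its cluster, had both marks at its TSS in every list. H3K27ac there covered 1090 and 1144 bp before estradiol, 965 and 794 bp after 2 h, 897 and 1052 bp after 6 h, 827 and 652 bp after 12 h and 607 and 597 bp after 24 h. The 24 h lists were the lowest, and the difference of -0.72 (SE 0.15 in the promoter window) did not pass (limma adjusted p = 0.105). H3K4me3 at the same place was 1312 and 1125 bp at 0 h and 1109 and 1351 bp at 24 h, and its groups overlapped.

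**Figure D4:**
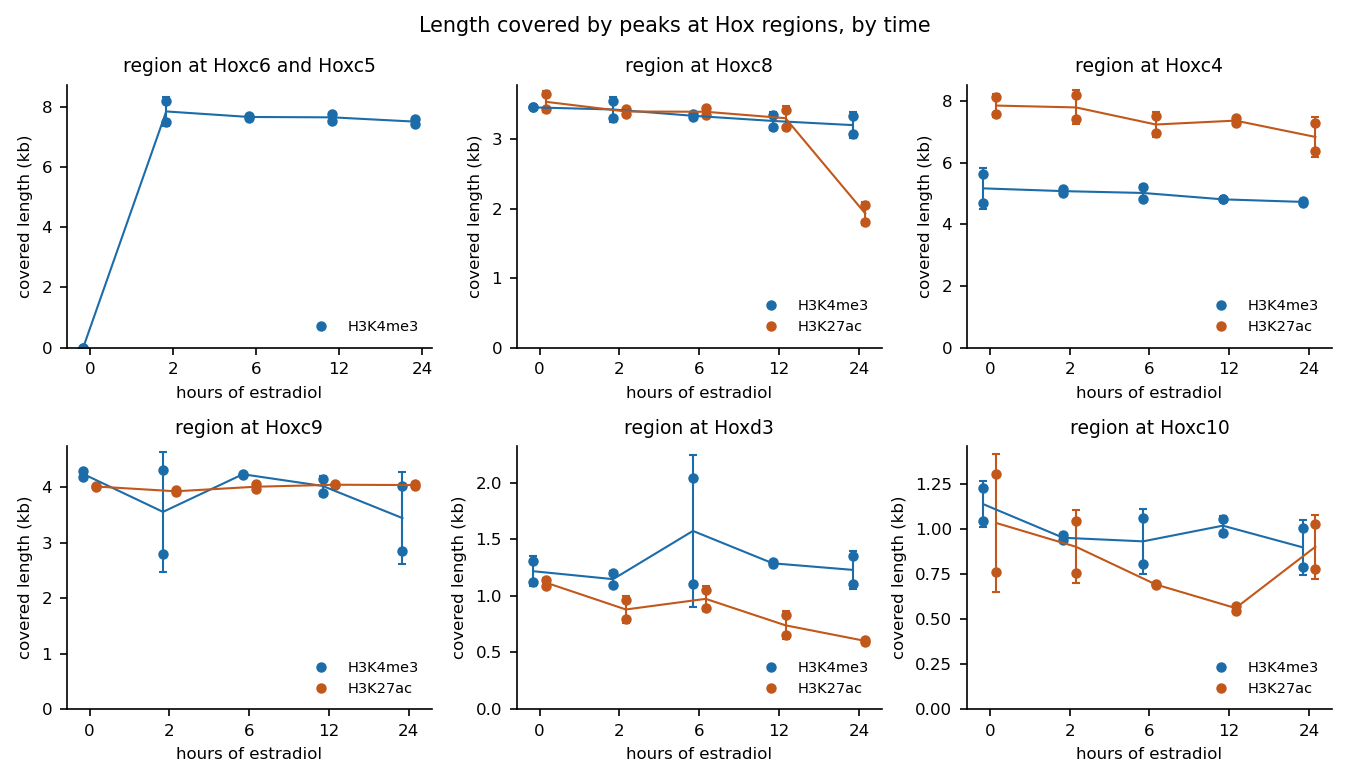
Covered length in kb (y axis) against hours of estradiol for 6 regions at *Hox* TSS; points are single lists, lines join the means of 2 lists, bars are SD and the 5 times are evenly spaced. H3K4me3 at *Hoxc6* and *Hoxc5* is 0 at 0 h and 7425 to 8184 bp at all later times, and H3K27ac at *Hoxc8* and *Hoxd3* is lowest at 24 h.

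*Hoxc4*, *Hoxc9* and *Hoxc10* had both marks in every list, and *Hoxc11* had no H3K4me3 at 24 h. *Hoxc4*, the most anterior member, had H3K4me3 over 4696 to 5635 bp (region chr15:103033702-103039398) and H3K27ac over 6374 to 8184 bp (chr15:103032193-103040716). In its promoter window H3K27ac was 4001 and 3751 bp at 0 h and 3371 and 2645 bp at 24 h, a difference of -0.35 that did not pass (SE 0.12, limma adjusted p = 0.279). *Hoxc9* had H3K4me3 over 2790 to 4316 bp at its TSS and 2233 to 2909 bp in a second block further into the gene. H3K27ac covered 3906 to 4059 bp of the first block in every list, and the second block in 5 lists: 0 h replicate 2, 6 h replicate 1, 12 h replicate 2 and both at 24 h. *Hoxc10*, which carried a CTCF site at its TSS, had shorter peaks of 788 to 1228 bp for H3K4me3 and 546 to 1302 bp for H3K27ac, and its 0 h and 24 h values overlapped for H3K27ac. For H3K4me3 at *Hoxc10* they did not, with 1228 and 1045 bp at 0 h and 788 and 1006 bp at 24 h, a difference of -0.29 that did not pass (SE 0.15 in the promoter window, limma adjusted p = 0.75). *Hoxc11* had H3K4me3 peaks of 648 to 818 bp over its coding exons at both 0 h lists, in 1 list each at 2, 6 and 12 h and in none at 24 h (limma adjusted p = 0.461).

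Between *Hoxc8* and the *Hoxc6* TSS lay the longest stretch with both marks in all lists. It held start sites of upstream noncoding transcripts of *Hoxc6* and no coding exon. H3K4me3 covered 6737 and 6994 bp before estradiol, 5012 and 6710 bp after 2 h, 5114 and 4911 bp after 6 h, 6542 and 4787 bp after 12 h and 6439 and 4741 bp after 24 h (chr15:102995305-103002298). H3K27ac covered 7367 to 8680 bp (chr15:102995184-103004018). The SD between the 2 H3K4me3 lists was 1201 bp after 2 h, 1241 bp after 12 h and 1201 bp after 24 h, and neither mark passed at 24 h (limma adjusted p = 0.651 and 0.655).

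*Hotair*, a long noncoding RNA gene between *Hoxc12* and *Hoxc11* known for its link to Polycomb, carried short peaks of both marks at different times. H3K4me3 was listed inside the gene at 0 h (860 and 639 bp) and in 12 h replicate 1 (583 bp), and in none of the other lists. H3K27ac was in neither list at 0 h or 2 h, and measured 763 and 814 bp after 6 h, 791 and 756 bp after 12 h and 622 and 0 bp after 24 h. The scores were near the lower end of the lists (50.5 to 101 for H3K27ac), and no difference from 0 h passed at 24 h (limma adjusted p = 0.194 for H3K4me3 and 0.444 for H3K27ac). Without 24 h replicate 2, the H3K27ac difference passed (2.04, adjusted p = 0.0461). The same held for a region 10410 bp beyond the *Hoxc4* TSS, chr15:103044806-103046907, where H3K27ac was listed at 12 h (1928 and 1957 bp) and in 24 h replicate 1 (1551 bp) only (1.57, adjusted p = 0.417 with all lists and 3.13, adjusted p = 0.0119 without 24 h replicate 2). A further H3K27ac region, at chr15:103052716-103054234, was in 8 lists with 811 to 1385 bp. H3K4me3 was also listed at chr15:103020567-103021932 in 12 h replicate 1 and 24 h replicate 2, and at chr15:102963609-102964318 in 1 list.

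Outside *Hoxc*, the histone peaks were short and often lay on CTCF sites. Of 8 H3K4me3 regions of *Hoxa*, *Hoxb* and *Hoxd* found in at least 2 lists, 5 overlapped a CTCF peak (62.5%), as did 2 of 10 in *Hoxc* (20%) and 37.7% of 14862 in the genome. Their median length was 1287 bp, against 3280 bp in *Hoxc* and 2386 bp in the genome. With so few regions these shares are a description only. In *Hoxa* the region chr6:52221153-52222330, at an upstream TSS of *Hoxa7*, had H3K4me3 in all 10 lists (median 869 bp, lowest 730 bp) and H3K27ac in 7 (599 to 860 bp). It sat on a CTCF site that scored in the 95.5 percentile of the 0 h list and the 92.9 percentile of the 24 h list, and the sequence of its motif is given above. *Hoxa2* had H3K4me3 of 398, 551 and 555 bp in 3 lists of different times.

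In *Hoxb* the region between *Hoxb5* and *Hoxb4*, chr11:96310385-96312031, had H3K4me3 in 9 lists (533 to 1624 bp) and H3K27ac in 4 lists, both at 6 h and 1 each at 12 and 24 h (678 to 912 bp), again on a CTCF site. A region between *Hoxb13* and *Hoxb9*, chr11:96199009-96200404, had H3K4me3 in 5 lists (670 to 993 bp) and overlapped a CTCF peak. One list at 24 h had a peak of 589 bp at *Gm11536*. In *Hoxd* the region between *Hoxd13* and *Hoxd12*, chr2:74671475-74673493, had H3K4me3 in all 10 lists (1534 to 2003 bp) and H3K27ac in all 10 (734 to 1519 bp) on a CTCF site, and it reached into the *Hoxd12* promoter window from upstream by 226 to 481 bp for H3K4me3 and 155 to 450 bp for H3K27ac without touching the TSS. The CTCF site in *Hoxd3* and *Hoxd4* carried H3K4me3 of 418 to 910 bp in 5 lists, none at 0 h. *Haglr*, a long noncoding RNA gene before *Hoxd1*, had H3K4me3 of 539 to 694 bp in 4 lists, and 1 list at 6 h had a peak of 303 bp at *Hoxd10*. None of those with a peak in at least 2 lists passed at 24 h by limma.

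The microRNA genes followed their surroundings. *Mir615* lay inside H3K4me3 in the 8 lists after 0 h and in no H3K27ac list. *Mir196a-2* had H3K4me3 within 2 kb of its start in 5 lists, from the peak at *Hoxc9*, and none over the gene. *Mir10a*, *Mir10b*, *Mir196a-1* and *Mir196b* had neither mark over the gene or within 2 kb of the start in any list, although the mature sequence of miR-196a-5p is the same from *Mir196a-1* and *Mir196a-2*. Of the long noncoding genes, *Hotairm1*, *Hottip*, *Hoxa11os*, *Hoxb5os*, *Hoxb3os* and *Gm53* had neither mark over the gene, and *Hoxd3os1* overlapped both marks in all 10 lists through the *Hoxd3* promoter. The protein-coding neighbours *Evx2*, *5730596B20Rik* and *Gm28230* had neither, and *Gm28308* overlapped the *Hoxa2* peak in 3 lists.

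Every *Hox* CTCF peak of the 0 h list was found again at 24 h. The clusters held 22 CTCF peaks at 0 h and 24 at 24 h, and all 22 overlapped a peak at 24 h, against 92.1% of the 33193 peaks of the 0 h list. There was 1 list per time, so this has no replicate check. The sites numbered 5 in *Hoxa*, 9 in *Hoxb*, 3 in *Hoxc* and 7 in *Hoxd*, which is 3.68 per 100 kb against 1.61 in the genome. *Hoxc*, with most of the histone marks, had the fewest sites per length (1.93 per 100 kb) and *Hoxd* the most (5.12 per 100 kb).

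The 2 sites listed at 24 h only were where *Hoxa3* and *Hoxa5* overlap (chr6:52204140-52204900, score 105, 35.8 percentile) and *Hoxb5* (chr11:96302844-96303454, score 101.74, 34.4 percentile). The 24 h list was longer, with 41473 peaks, and 73.3% of its peaks overlapped one at 0 h. Of the 22 shared sites, 13 had a higher score percentile in the 24 h list than in the 0 h list, 3 in *Hoxc* and 10 in the other clusters, 8 had a lower one and 1 the same. Among those higher at 24 h, the percentile was 39.5 and 74.2 between *Hoxd13* and *Hoxd12*, 2.99 and 35.2 between *Hoxb5* and *Hoxb4*, and 66.3 and 91.2 between *Hoxc9* and *Hoxc8*. Among the 8 lower at 24 h, it was 75.7 and 45.5 at chr11:96261317-96262105, between *Hoxb13* and *Hoxb9*, and 77.3 and 50.2 in *Hoxd10*. These are ranks in 2 lists of unequal length without replicates and cannot show a change in binding. Over all 22 shared sites the median percentile was 67.0 at 0 h, and over the 24 sites at 24 h it was 63.7. The highest percentile at 0 h was 95.8, at *Hoxd3* and *Hoxd4*, and the highest at 24 h was 98.1, at *Hoxc10*. Of the 24 sites, 7 lay in H3K4me3 of at least 2 lists (29.2%, against 13.1% of CTCF sites in the genome) and 4 in H3K27ac of at least 2 lists (16.7%, against 17.0%).

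**Figure D5:**
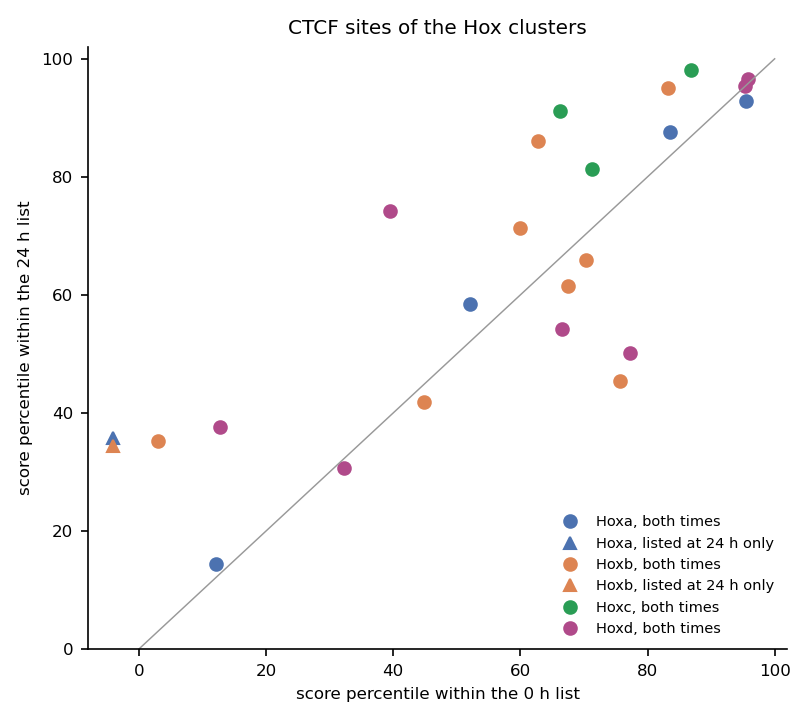
Score percentile of each CTCF site of the *Hox* clusters within the 0 h list (x axis) and the 24 h list (y axis), 1 list per time, coloured by cluster; triangles at the left edge are the 2 sites listed at 24 h only and the line marks equal percentiles. Of the 22 shared sites, 13 lie above the line, in all 4 clusters.

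The known partners and regulators of *Hox* genes were read in the same windows, where 43.8% of all protein-coding genes had H3K4me3 and 39% had H3K27ac in all 10 lists. Among 9 TALE cofactor genes, *Meis1*, *Pbx2*, *Pbx3*, *Pbx4* and *Pknox1* had H3K4me3 in all 10 lists, and the same genes except *Meis1* had H3K27ac in all 10. Of 15 activator genes, which include *Kmt2a* and *Men1* of the KMT2 complex, 12 had H3K4me3 in all 10 lists, and *Cdx1*, *Cdx2* and *Cdx4*, homeobox activators of *Hox* genes in the embryo, had neither mark. Of 14 Polycomb genes, 10 had H3K4me3 in all 10 lists, among them *Ezh1* and *Ezh2*. Of 18 homeobox genes outside the clusters, *Hhex* and *Hlx* were among those with both marks in all 10 lists, *Lhx2* had H3K4me3 in 9, and 14 had no H3K4me3. By limma, no gene of these lists passed at 24 h against 0 h in either direction for either mark, with 5, 12, 10 and 4 genes tested for H3K4me3, medians of -0.07, -0.05, -0.01 and -0.03 (log2), and a median of -0.01 over all windows tested. At an unadjusted p under 0.05 there were 0, 4, 0 and 0 genes for H3K4me3 and 0, 1, 1 and 1 for H3K27ac, in the same order of lists, with 4, 12, 10 and 3 genes tested for H3K27ac. Over all windows tested the share was 7.63% for H3K4me3 and 13.8% for H3K27ac.

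The lists read as erythroid cells at the marker promoters. H3K4me3 was in the window of 13 of 15 erythroid genes in at least 2 lists (not of *Gata1* and *Tal1*), of 4 of 8 mast cell and myeloid genes, and of 0 of 5 lymphoid and 0 of 6 non-blood genes. The mast cell and myeloid genes marked were *Cpa3*, *Ms4a2*, *Kit* and *Spi1*. Their part in the *Hox* results was not tested. The histone lists held 12925 to 14452 (H3K4me3) and 17247 to 18333 (H3K27ac) peaks, and sequencing depth is unknown because no read counts were analysed.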

How the data were processed

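ChIP-seq of H3K4me3 and H3K27ac (0, 2, 6, 12 and 24 h, 2 replicates each) and of CTCF (0 and 24 h, 1 library each) in G1E-ER4 cells was taken as 22 peak lists. The authors aligned reads to mm10 with Bowtie2 at default settings (also named in the submitters' processing notes), kept uniquely mapped reads and called peaks per library with MACS and no model building; the MACS version, control and threshold are not given in the sources used here. The extraction protocol of the labels names a human build, but 62.5 to 69.1% of H3K4me3 peaks held a mouse protein-coding TSS, against 6.6 to 7.15% when moved by 50 kb. The antibody number for H3K4me3 differs between the labels and the study's methods. The deposited score is a peak score whose scale the lists do not name. It is given here as a raw value or as a percentile within its list, it was used to filter peaks in some alternatives, and differences in score were not tested. The lists hold no counts, so depth is unknown and no counting interval is given.

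From the lists, consensus regions were the union of peaks over the 10 lists of each mark, and the covered length was taken per region, per promoter window (TSS ± 2 kb; 1 TSS per gene, of the longest coding transcript with the best APPRIS level in GENCODE) and per cluster. Regions and windows with a peak in at least 2 lists were tested as log2(covered bp + 200) with limma 3.58.1 (R 4.3.3) on all 10 lists with time as factor, with Benjamini-Hochberg adjustment over all regions or windows and a threshold of 0.05. Differences are on that scale and understate short regions. Cluster lengths were tested against hours by permutation (100000 resamples, or all orders below 10 lists), with 10 trends adjusted together. Alternatives covered the window, margin, pseudocount, merging, peak choice, minimum lists, single lists left out and the replicate block. Replicate numbers did not pair the lists: deviations of lists with the same number correlated at -0.08 to 0.03 between time points. No 2 lists shared more than 0.0379% of intervals.

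The members, gene lists and tests were chosen with earlier results of these data known. Named were all 39 genes, all consensus regions and CTCF peaks of the clusters and the noncoding genes with a mark; values by list were given for genes with a promoter peak in at least 2 of 20 histone lists. CTCF sequences were taken around the motif of the 2 highest-scoring shared peaks between the outer genes of each cluster and of peaks listed once, where a motif was found. Analysis used Python 3.11.15 with numpy 2.4.6, pandas 2.3.3 and scipy 1.17.1. Some items of the lists and some sequences are not reported here.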

Additional observations from a re-analysis of the deposited data

How the results depend on the processing

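No trend in covered length passed under any alternative run, and the directions of several trends were not stable. H3K27ac kept its direction, positive in *Hoxb* and negative in *Hoxd*, in the 16 alternatives that gave a value for each. With only peaks at or above the median score, rho against hours was -0.0525 for H3K4me3 in the 4 clusters and in *Hoxc*, and -0.197 for H3K27ac in both. With equal numbers of top-scoring peaks it was 0.0985 for H3K4me3 in *Hoxb*, and for H3K27ac -0.172 in the 4 clusters and -0.0985 in *Hoxc*. For H3K27ac in the 4 clusters and in *Hoxc* it was -0.0985 and -0.369 without the margin, and -0.123 and -0.172 when scaled by the covered length of the list. Pearson's r for H3K27ac in the 4 clusters was -0.00842. Without the region at *Hoxc6* and *Hoxc5* (chosen after seeing the data), H3K4me3 gave -0.591 in the 4 clusters and -0.615 in *Hoxc*, and the slope difference was 0.0416. Leaving out single lists gave rho from -0.017 to 0.407 (H3K4me3, *Hoxa*), -0.39 to 0.0424 (H3K4me3, *Hoxb*), -0.136 to 0.39 (H3K27ac, 4 clusters) and -0.0255 to 0.426 (H3K27ac, *Hoxa*). For 6 trend alternatives all lists were at 0 and gave no value. The cause of these changes was not tested.

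The score filter left 0 *Hox* genes with H3K4me3 and 1 with H3K27ac in all 10 lists, 14 shared CTCF peaks, 0 calls for H3K4me3 windows and regions, and 2 each for H3K27ac windows and regions. It turned the H3K27ac difference at *Hoxc4* to 1.92. With each gene read at its annotated TSS of largest covered length, 1 H3K4me3 window was called. *Hoxc6*, then read at an upstream start site, was at -0.18. H3K27ac window calls were 0 with a 1 kb window or with only the lists of 0 and 24 h, and 0 to 1 when single lists were left out (0 without 0 h replicate 1). H3K27ac region calls were 1 to 3 (3 without 24 h replicate 2: *Hoxc8*, *Hotair* and the region beyond *Hoxc4*).

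Replicate numbers shared by the groups did not pair the lists. With the replicate block, calls stayed at 2 and 1 windows and 1 and 1 regions for H3K4me3 and H3K27ac, rho for H3K4me3 in the 4 clusters was 0.394 (permutation, adjusted p = 0.826), and the *Hoxc8* window had a limma adjusted p of 0.0224. Peak lists without counts limit every result to presence, length and score.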
